A study of Gallus gallus with 6 samples.

Results

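The genes of de novo inosine monophosphate (IMP) synthesis were compared between 2 skeletal muscles of broiler chickens (Gallus gallus). The genes were chosen by name from the known pathway (PPAT, GART, PFAS, PAICS, ADSL and ATIC), and 5 of these 6 had a row among the 18239 genes of the deposited table. PFAS, which makes formylglycinamidine ribonucleotide, had no row under that symbol and was not analysed here. The deposited gene ontology term for this pathway was attached to the same 5 genes and to GART-B, a second gene listed under a GART symbol. Transcript levels were measured by RNA sequencing in 3 soleus (leg) and 3 pectoralis major (breast) libraries, all from broilers 180 days old, with no treatment or genotype named in the labels. The series describes the muscles as very different in fibre types and set out to find genes that differ with them. Whether each library is a different bird is not stated in the labels. A p-value here thus reflects only how far these samples scatter, and that scatter may be technical.

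IMP is the first complete purine nucleotide that cells build, and both AMP and GMP are made from it. The pathway assembles the purine ring on phosphoribosyl pyrophosphate (PRPP), with nitrogen and carbon from glutamine, glycine, aspartate, bicarbonate and formyl groups carried by tetrahydrofolate. Birds also run it at a high rate in the liver, since they excrete nitrogen as uric acid. In muscle, AMP deaminase makes IMP from AMP during hard work and after death, adenylosuccinate synthetase and ADSL turn IMP back into AMP (the purine nucleotide cycle), and IMP contributes to the umami taste of meat.

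The soleus libraries held 38534335 to 39079981 fragments and those of pectoralis major 36309597 to 37123092. Levels are in FPKM, fragments per kilobase of gene scaled to the library total. Differences are taken on log2(FPKM + 1), pectoralis major subtracted from soleus, and the added 1 makes them too small for low genes. A gene was called when limma's p, adjusted by Benjamini-Hochberg over 9616 tested genes, was under 0.05. Of all tested genes 57.3% were called, 40.0% as higher and 17.4% as lower in soleus, with a median difference of 0.26. That balance depended on the scaling: 69.7% of calls were higher in soleus as deposited, 40.7% under median-ratio scaling, 48.1% under quantile normalization, 82.0% when genes of the mitochondrial genome were removed from the totals and 55.4% when a mean of 5 FPKM was required. Over all genes the median was -0.053 with median-ratio scaling, -0.0031 with quantile normalization and 0.45 when the mitochondrial genes were removed. Those genes took 19.6 to 23.7% of soleus fragments and 7.03 to 8.66% of pectoralis major fragments. The muscle labels were checked against fibre markers: the slow light chain gene MYL3 averaged 4688 FPKM in soleus against 0.116 in pectoralis major, and the fast heavy chain gene MYH1E averaged 4.31 against 4823. The fast genes MYL1 (7749 against 14367), TNNT3 (6886 against 15989) and TNNI2 (4572 against 11937) were also lower in soleus but stayed high there.

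Of the 5 genes, GART and ADSL were lower in soleus, ATIC was higher, and PPAT and PAICS did not pass the test. Their median difference was -0.043, that of PPAT, against 0.26 for all tested genes. The calls amounted to 3 of 5 genes, against 57.3% of all tested genes, so the number of calls was near the background. For 3 of 5 genes the libraries of the muscles were fully separated, against 64.9% of all tested genes.

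**Figure D1:**
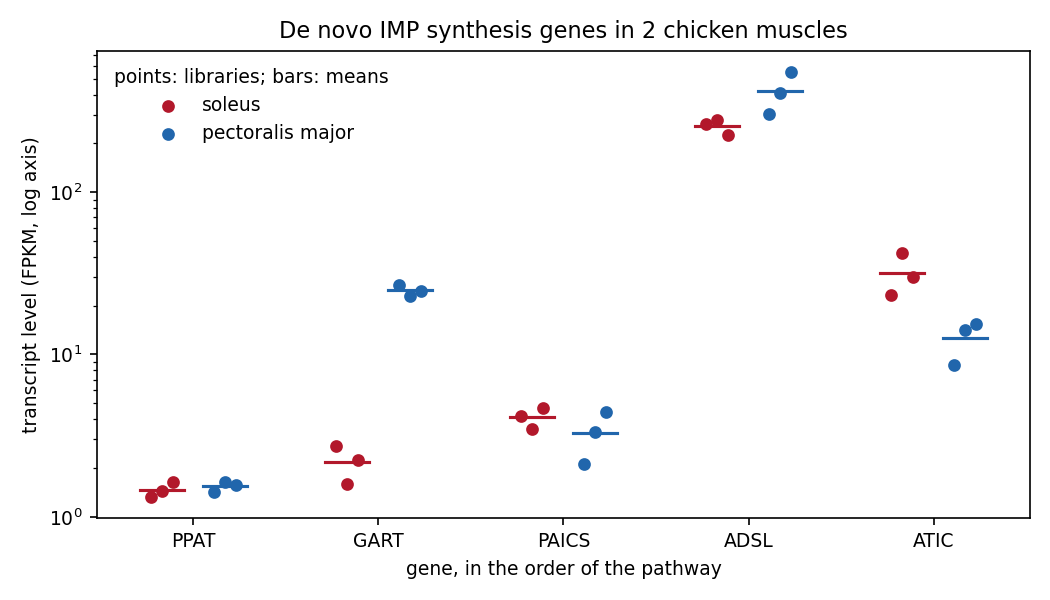
Transcript level in FPKM (log axis) of the 5 genes in each library, in the order of the pathway; points are the 3 libraries of soleus (red) and of pectoralis major (blue), and bars are means. GART is at 1.59 to 2.72 in soleus and 22.8 to 26.9 in pectoralis major, while PPAT and PAICS overlap between muscles.

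GART (gene number 395315) encodes an enzyme with 3 activities that add glycine and a formyl group and close the imidazole ring. It had 2.72, 1.59 and 2.25 FPKM in the 3 soleus libraries against 26.9, 22.8 and 24.7 in the 3 of pectoralis major, here and throughout in the order of their numbers. Every soleus library was far below every pectoralis major library, and the soleus libraries scattered more for their level than those of pectoralis major. The means were 2.19 ± 0.569 and 24.8 ± 2.06 FPKM (SD, n = 3 each), 11.3-fold higher in pectoralis major. The log2 difference was -3.03 ± 0.16 SE (95% interval -3.40 to -2.66, limma adjusted p = 3.89e-06). Of all tested genes, 29 (0.302%) were called with a difference at or below that of GART, itself included. The values rested on 493 to 833 fragments per library in soleus and 6716 to 7765 in pectoralis major.

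GART-B, listed with the same ontology term for IMP synthesis, lies next to GART in the gene table of assembly GRCg7b, where their annotations overlap by 157 bases. It had 0.468, 0.825 and 0.267 FPKM in soleus and 0.475, 0.875 and 0.0108 in pectoralis major and was too low to be tested. These levels overlapped between muscles and rested on 2 to 162 fragments. How the counting split fragments between GART and GART-B is not known, and with the fragments of both genes added together the log2 difference was -2.90 (limma adjusted p = 2.23e-06). In chicken and human, GART is also known to give a shorter transcript that encodes only its glycine-adding domain. Values per gene do not separate these transcripts.

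ATIC (gene number 396091) carries out the last reactions of the pathway, adding the second formyl group to AICAR and closing the ring to IMP. It had 23.3, 42.1 and 30.1 FPKM in the 3 soleus libraries against 8.62, 14.1 and 15.4 in pectoralis major. The lowest soleus library lay above the highest pectoralis major library, and soleus library 2 was the highest of all. Means were 31.8 ± 9.50 and 12.7 ± 3.60 FPKM (SD, n = 3 each), 2.50-fold higher in soleus, with a log2 difference of 1.26 ± 0.26 SE (95% interval 0.68 to 1.84, limma adjusted p = 0.00348).

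Markers of several cell types other than skeletal muscle fibres were also called higher in soleus, beside 40.0% of all tested genes. The counts for fibroblasts and tendon cells and for satellite cells were near that share. Of the tested markers, 10 of 10 rose for endothelial cells, 8 of 9 for leukocytes, 7 of 7 for adipocytes, 5 of 5 for smooth muscle cells and pericytes, 5 of 9 for fibroblasts and tendon cells and 1 of 3 for satellite cells. Under median-ratio scaling the counts were 6, 6, 7, 3, 3 and 1 in the same order, while 1956 of 9506 genes rose in all. Without soleus library 1 the fibroblast and tendon count was 3 of 8, and 2495 of 8929 genes rose in all. PPARG and SCX among these reached 1 FPKM in soleus libraries only. Each was thus tested only through soleus, and its call supports no count of its list. Summed endothelial markers were at 183 to 224 FPKM in soleus and 95.3 to 107 in pectoralis major, leukocyte markers at 1019 to 1121 and 524 to 675, and adipocyte markers at 385 to 511 and 95.6 to 101. CD74 held most of the leukocyte sum, with means of 916 FPKM in soleus and 514 in pectoralis major. Smooth muscle markers summed to 268 to 403 and 141 to 212 FPKM, fibroblast markers to 395 to 453 and 232 to 420, and satellite cell markers to 19.3 to 23.3 and 11.7 to 14.5. SCX among the tendon markers and PAX3 among the satellite cell markers were at 0 in at least 1 library. Summed erythrocyte markers were at 424 to 1032 and 403 to 810 FPKM. Of 3 tested, 0 passed by limma, 0 at an unadjusted p under 0.05 and 0 with voom, but with the replicate block 2 rose, HBAD and HBBA. The block also raised the satellite cell count to 2 of 3, and with it 4207 of all 9616 tested genes rose. The part of these cells in the values of ATIC and the other genes was not tested. In such bulk samples, fewer cells of a type and less RNA per cell cannot be told apart.

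Of 12 markers of proliferating cells found, 4 were high enough to be tested. As deposited MCM2 (0.40) rose and MCM5 (-0.48) fell, but neither passed when soleus library 2, soleus library 3 or pectoralis major library 2 was left out, MCM2 was lost without soleus library 1, and MCM5 without pectoralis major library 1 or 3. With the mitochondrial genes removed 4 of 6 tested markers rose and 0 fell, with no filter 3 of 12 rose and 0 fell, and under median-ratio scaling and quantile normalization 0 of 4 rose and 1 fell. Over all tested genes, 5275 of 9982 rose with the mitochondrial genes removed and 4326 of 18239 with no filter. As deposited, 40.0% of all tested genes rose and 17.4% fell. The summed level was 32.9 to 41.0 FPKM in soleus and 30.9 to 34.9 in pectoralis major. PCNA, the sliding clamp of DNA replication, held most of that sum, with means of 25.8 and 23.9 FPKM.

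ADSL (gene number 396540) encodes adenylosuccinate lyase, which splits off fumarate both in IMP synthesis and in the conversion of IMP to AMP. It was the most abundant gene of the pathway in both muscles, with 261, 278 and 225 FPKM in the 3 soleus libraries against 304, 408 and 551 in pectoralis major. The muscles did not overlap, but the pectoralis major libraries were spread widely. With means of 255 ± 27.1 and 421 ± 124 FPKM (SD, n = 3 each), ADSL fell in soleus (log2 difference -0.69 ± 0.21 SE, 95% interval -1.16 to -0.22, limma adjusted p = 0.0203). The call was lost when pectoralis major library 3 (adjusted p = 0.0535), soleus library 1 (0.0537) or soleus library 3 (0.0685) was left out, with no filter on low genes (0.0655) and with the mitochondrial genes removed from the totals (0.0693). In all of these settings ADSL stayed lower in soleus.

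PPAT (gene number 422743) makes phosphoribosylamine from PRPP and glutamine, the committed step and the point of feedback control by purine nucleotides. It was the lowest of the 5 genes, with 1.33, 1.44 and 1.63 FPKM in soleus and 1.41, 1.63 and 1.58 in pectoralis major, resting on 231 to 286 fragments per library. The libraries of the muscles were interleaved, and the log2 difference was -0.043 with a 95% interval of -0.29 to 0.21 (limma adjusted p = 0.756). PPAT passed as lower in soleus under quantile normalization (log2 difference -0.44, adjusted p = 0.0109) and had a difference of 0.098 with the mitochondrial genes removed.

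PAICS (gene number 396534), which carboxylates the imidazole ring and adds aspartate, had 4.16, 3.49 and 4.68 FPKM in soleus and 2.12, 3.34 and 4.42 in pectoralis major. Pectoralis major library 1 was the lowest, and the other 5 libraries were close together. The log2 difference was 0.28 with a 95% interval of -0.19 to 0.75 (limma adjusted p = 0.266). That interval takes in 0, so the sign of any change was not settled at this spread. In chicken, PPAT and PAICS are known to be transcribed divergently from a shared promoter. Their annotations overlap by 27781 bases in GRCg7b, and since the use of strand in counting is not given in the sources used here, fragments from overlapping stretches may not be told apart.

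**Figure D2:**
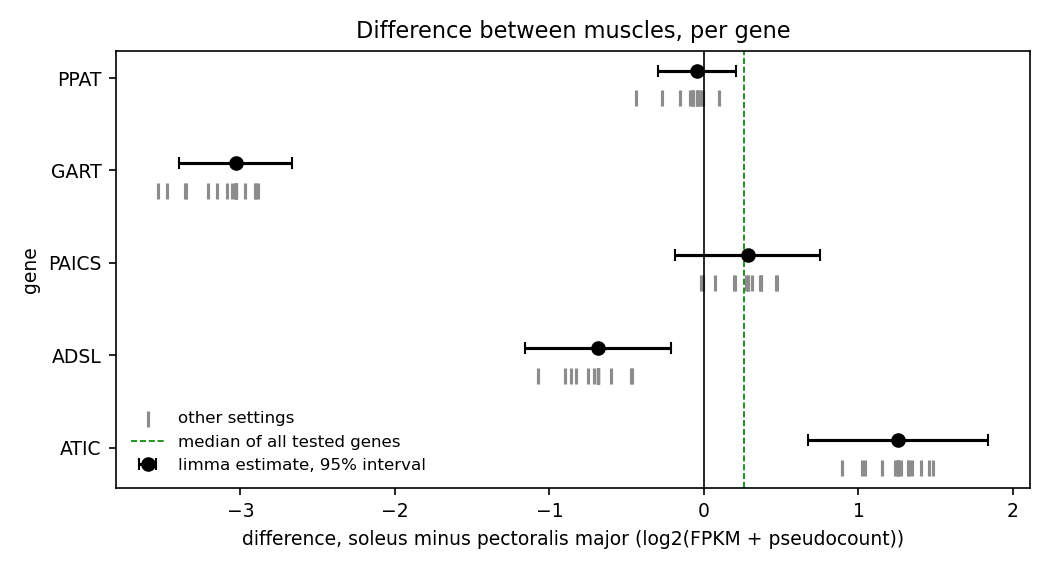
Difference between muscles per gene, soleus minus pectoralis major in log2(FPKM + pseudocount). Black points are the limma estimates with 95% intervals, grey ticks the values under other settings, and the dashed line the median of all tested genes (0.26); GART and ATIC keep their sides of 0 under each setting, while PPAT and PAICS straddle it.

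The order of the genes differed between the muscles. In soleus, ADSL was followed by ATIC, PAICS, GART and PPAT, and in pectoralis major by GART, ATIC, PAICS and PPAT. Neighbours in these orders did not overlap between libraries of a muscle, except for GART and PPAT in soleus. ADSL took 85.1 to 89.2% of the summed FPKM of the 5 genes in soleus and 88.6 to 92.3% in pectoralis major. Among the other 4 genes, ATIC made up 74.0, 86.6 and 77.9% of the sum in the 3 soleus libraries against 22.1, 33.7 and 33.4% in pectoralis major. GART made up 8.62, 3.27 and 5.82% in soleus and 68.9, 54.4 and 53.6% in pectoralis major. The sum of those 4 genes was 31.6 to 48.6 FPKM in soleus and 39.1 to 46.1 in pectoralis major. The muscles thus overlapped in this sum and differed in its make-up. With ADSL included, the sum was 264 to 326 FPKM in soleus and 343 to 597 in pectoralis major, without overlap.

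**Figure D3:**
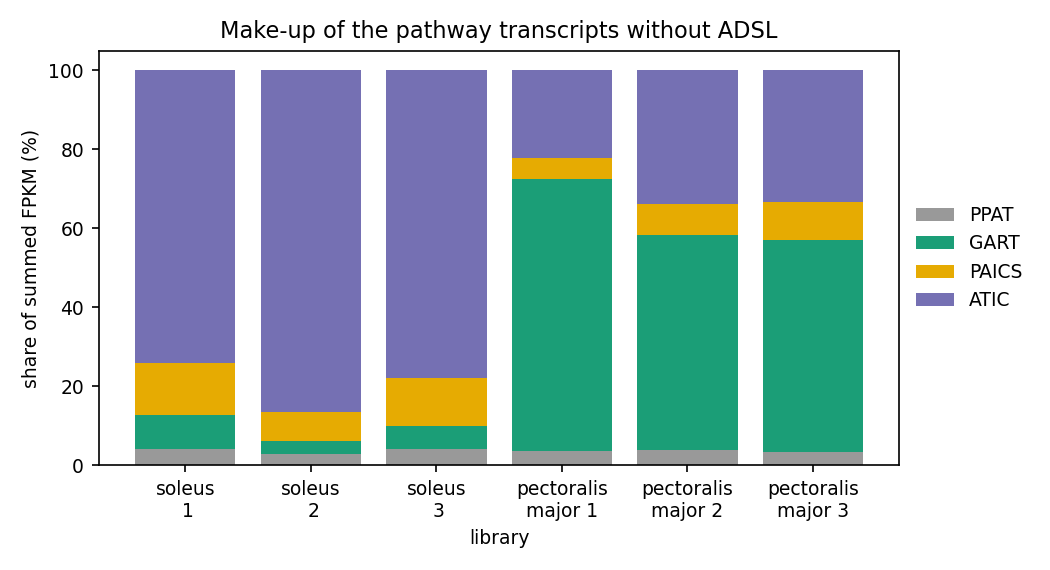
Share of each gene, in percent, in the summed FPKM of PPAT, GART, PAICS and ATIC in each of the 6 libraries. ATIC holds 74.0 to 86.6% in soleus, and GART holds 53.6 to 68.9% in pectoralis major.

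Ratios of 2 genes within a library do not depend on the scaling between libraries. The ratios of GART and of ATIC to the other genes, 7 in all, were compared by a two-sided exact permutation test over the 6 libraries, for which 0.1 is the smallest p possible. The log2 ratio of GART to ATIC was -3.10, -4.73 and -3.74 in soleus and 1.64, 0.69 and 0.68 in pectoralis major. ATIC exceeded GART in each soleus library, and GART exceeded ATIC in each pectoralis major library. The mean difference was -4.86 (exact p = 0.1). Relative to PPAT, PAICS and ADSL, GART was lower in soleus by mean log2 differences of -3.46, -3.91 and -2.85. ATIC was higher relative to the same genes, by 1.40, 0.95 and 2.02. The muscles did not overlap in any of these 7 ratios. Each had an exact p of 0.1, also after Benjamini-Hochberg adjustment, so this test cannot pass 0.05 at this size. All 7 contain GART or ATIC and share genes, so they are not 7 separate results.

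Neighbouring steps of purine metabolism were covered by 10 gene lists with 106 genes in the table, of which 91 were tested. In all, 30 rose in soleus and 21 fell, against 40.0% and 17.4% of all tested genes. Under median-ratio scaling and under quantile normalization 13 of 91 rose, and when a mean of 5 FPKM was required 13 of the 54 genes then tested. Over all genes, 1956 of 9506 rose and 2853 fell under median-ratio scaling, and 2147 of 9616 rose and 2320 fell under quantile normalization. A mean of 5 FPKM gave 1639 of 5099 higher. Removing the mitochondrial genes gave 5275 of 9982 higher and 1158 lower, and no filter 4326 of 18239 and 1564. List counts under these settings, here and below, stand against those numbers and not against 40.0% and 17.4%. DCK, ENTPD1, SLC25A13, CAD and CTPS2 reached 1 FPKM in soleus libraries only and NRF1 in pectoralis major libraries only, so each could be tested only through the muscle where it was high, and its call supports no count or median of its list.

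**Figure D4:**
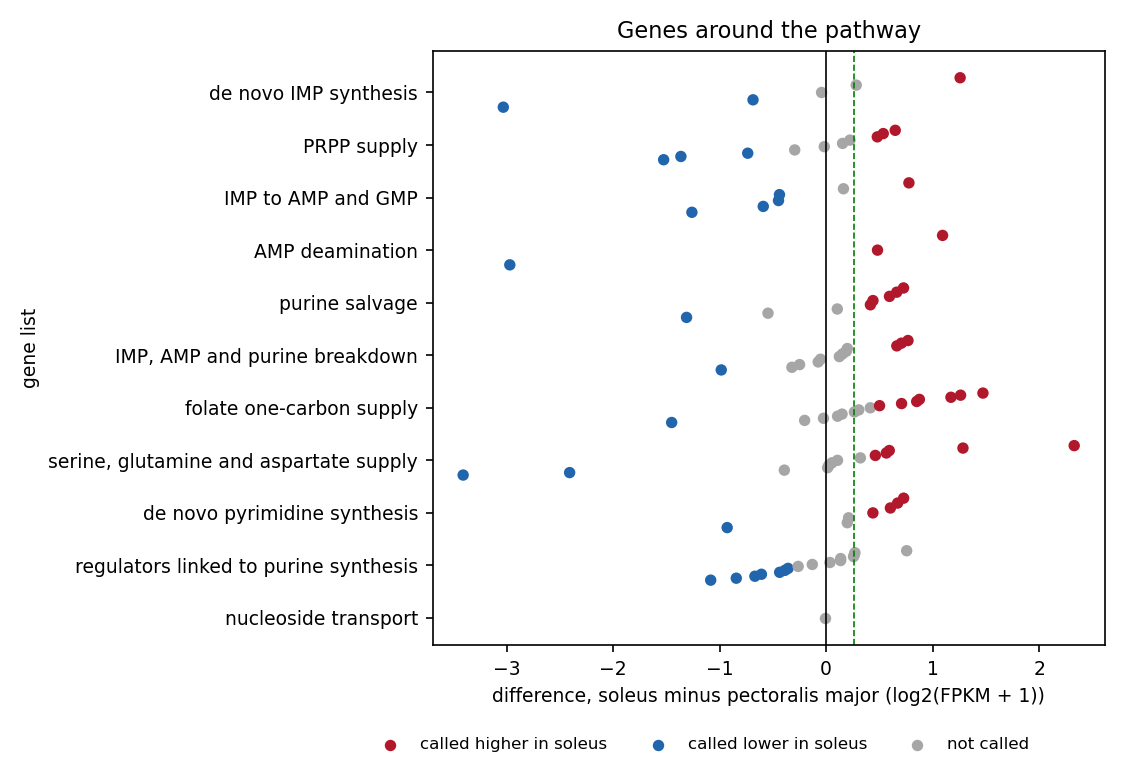
Differences between muscles, soleus minus pectoralis major in log2(FPKM + 1), for the tested genes of the pathway and of 10 neighbouring lists; red points were called higher in soleus, blue points lower and grey points not called, and the dashed line is the median of all tested genes. GART (-3.03) and AMPD1 (-2.97) lie far to the left, as do PSPH (-2.41) and GLS2 (-3.41) of the amino acid list.

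Upstream of PPAT, PRPP supply had 10 tested genes. In soleus 3 fell and 3 rose, against 17.4% and 40.0% of all tested genes. The median was 0.068, but -0.25 under median-ratio scaling, and it was -0.040 without pectoralis major library 2, 0.018 without soleus library 3, 0.025 without pectoralis major library 1 and 0.044 without soleus library 1. PRPS1L1, listed as a PRPP synthetase and the most abundant gene of this list, had 117, 99.6 and 87.3 FPKM in soleus and 269, 330 and 278 in pectoralis major (log2 difference -1.53, limma adjusted p = 8.79e-05). Its muscles lay well apart. RPIA, which isomerizes ribose phosphate (-1.36), and RBKS, ribokinase (-0.74), also fell. PGM2 (0.65) and the pentose phosphate genes PGD (0.54) and PGLS (0.48) rose. None of these 3 passed under median-ratio scaling, where 5 genes of the list fell. PGLS was lost on leaving out soleus library 2 (adjusted p = 0.112), soleus library 3 (0.0716), pectoralis major library 1 (0.0825) or pectoralis major library 3 (0.0501).

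Glutamine, serine and aspartate supply and use had 13 tested genes, of which 5 rose and 2 fell, near the 40.0% and 17.4% of all tested genes. The list mixes both: GLS2 breaks down glutamine, and ASNS and ASS1 use up aspartate. Its counts and medians thus give no direction of supply. Under median-ratio scaling 3 rose and 3 fell, and under quantile normalization 2 rose and 3 fell. The median was 0.11 as deposited and -0.23 under median-ratio scaling, and it was 0.057 without soleus library 2, 0.16 without soleus library 3, 0.22 without pectoralis major library 3 and 0.38 without pectoralis major library 2. GLS2, a glutaminase, had 7.75, 4.82 and 6.57 FPKM in soleus and 74.6, 80.9 and 73.5 in pectoralis major (log2 difference -3.41), and PSPH, which completes serine synthesis, fell by 2.41 on the log2 scale. SLC38A2, an amino acid transporter that carries glutamine, rose (2.33), with 99.0, 48.9 and 42.0 FPKM in soleus and 12.1, 11.5 and 9.31 in pectoralis major. ASS1 (1.28), ASNS (0.59), SLC38A1 (0.56) and SLC25A13 (0.46; tested only through soleus) rose as well. GOT1, the most abundant gene of the list, had 253 ± 21.5 and 243 ± 22.5 FPKM (SD, n = 3 each) and did not pass. Under quantile normalization ASNS, SLC38A1 and SLC25A13 did not pass (adjusted p = 0.111, 0.293 and 0.776).

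Folate enzymes supply the formyl groups that GART and ATIC use. Of 15 tested genes, 7 rose in soleus and 1 fell, against 40.0% and 17.4% of all tested genes. The number that rose was thus near the background. Under quantile normalization 5 rose and 3 fell, and under median-ratio scaling 5 rose and 2 fell. The median was 0.41, but 0.20 without pectoralis major library 1 and 0.15 under median-ratio scaling. The gene that fell, MTHFD2, a mitochondrial enzyme that forms formyl precursors, had 19.3, 12.2 and 13.2 FPKM in soleus and 48.3, 37.6 and 39.6 in pectoralis major (log2 difference -1.45, limma adjusted p = 0.000381). GCSH of the glycine cleavage system (1.47), the reduced folate carrier SLC19A1 (1.26) and ALDH1L2, which oxidizes formyl tetrahydrofolate in mitochondria (1.17), were among those that rose. DLD, the most abundant gene of the list, had 150 ± 11.4 and 135 ± 8.68 FPKM (SD, n = 3 each) and did not pass as deposited. It passed as higher with the mitochondrial genes removed (adjusted p = 0.0255) and had a difference of -0.24 under median-ratio scaling.

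In the list that joins IMP to AMP and GMP, 4 of 6 tested genes fell in soleus and 1 rose (median -0.44). Of all tested genes 17.4% fell and 40.0% rose. The counts moved with the settings. Under median-ratio scaling 4 fell and 0 rose, under quantile normalization 3 fell and 0 rose, with the mitochondrial genes removed 2 fell and 2 rose, and with no filter 2 fell and 1 rose. ADSS1, the muscle adenylosuccinate synthetase that works just before ADSL, had 102, 71.9 and 84.6 FPKM in soleus and 192, 218 and 209 in pectoralis major (log2 difference -1.26, limma adjusted p = 0.000242). IMPDH2, the entry to GMP synthesis, fell by 0.59 on the log2 scale, and ADSS2 (-0.44) also fell. GMPR2 (-0.45), which turns GMP back into IMP, fell as well. The list thus mixes both directions, and its counts and median give no direction of conversion. GUK1 (0.78) rose, but not with median-ratio scaling (adjusted p = 0.0526) or quantile normalization (0.0808). ADSS2 was lost on leaving out pectoralis major library 2 (adjusted p = 0.0679), soleus library 2 (0.0707) or soleus library 3 (0.0903), and GMPR2 without each library but soleus library 1 (0.0558 to 0.18), so only 2 genes fell without any 1 of soleus libraries 2 and 3 and pectoralis major library 2.

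AMPD1, the AMP deaminase of skeletal muscle, had 37.1, 44.0 and 27.2 FPKM in soleus and 259, 322 and 276 in pectoralis major (log2 difference -2.97, limma adjusted p = 8.26e-06). AMPD3 (1.09) and AMPD2 (0.48) rose, AMPD2 not with median-ratio scaling (adjusted p = 0.106) or quantile normalization (0.518). AMPD1, ADSS1 and ADSL, the most abundant genes of the purine nucleotide cycle here, were each called lower in soleus as deposited, without overlap. Of all tested genes 17.4% were called lower, and 64.9% did not overlap, in either direction. The call of ADSL was lost in 5 of 15 alternatives, and the less abundant ADSS2 fell while AMPD2 and AMPD3 rose.

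Purine salvage, which rebuilds nucleotides from free bases and nucleosides, had 8 tested genes. As deposited 5 rose and 1 fell, against 40.0% and 17.4% of all tested genes (median 0.43), and with the replicate block 2 fell. DGUOK (0.73), APRT (0.66), MTAP (0.59), DCK (0.44) and ADK (0.42) rose and ADAL (-1.31) fell. DCK was tested only through soleus, so its call supports neither the count of 5 nor the median. Under median-ratio scaling 0 rose and 2 fell, under quantile normalization 1 rose, with no filter 3 rose, and 2 fell on leaving out pectoralis major library 1. As APRT, MTAP and ADK lost calls (adjusted p = 0.0532 to 0.0862) and DCK fell below the filter in the fits with 1 soleus library left out, the number that rose was 2 without soleus library 1, 1 without soleus library 2, 2 without soleus library 3 and 3 without pectoralis major library 2 or 3. HPRT1, which salvages hypoxanthine to IMP and was the most abundant gene of the list, had 21.0 ± 2.09 and 19.5 ± 1.495 FPKM (SD, n = 3 each) and did not pass.

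Of 12 tested genes listed under purine breakdown, 3 rose (NT5C2 0.77, NT5C1B 0.71 and ENTPD1 0.66) and ENTPD6 (-0.98) fell. Both shares were below the 40.0% and 17.4% of all tested genes. Under median-ratio scaling 3 rose and 3 fell, and under quantile normalization 2 rose and 2 fell. The median was 0.14 as deposited and -0.22 under median-ratio scaling, and it was 0.035 without soleus library 2, 0.082 without pectoralis major library 1, 0.089 without pectoralis major library 3 and 0.23 without pectoralis major library 2. ENTPD1, below 1 FPKM in each pectoralis major library, did not pass under quantile normalization (adjusted p = 0.111). NT5C3A, the most abundant gene of that list but known as a pyrimidine nucleotidase, had 45.0 ± 2.55 and 41.7 ± 8.52 FPKM (SD, n = 3 each) and did not pass. The parallel pathway of pyrimidine synthesis, taken with the pyrimidine salvage kinases UCK1 and UCK2, had 7 tested genes. Of these, 4 rose (CTPS2 0.73, DHODH 0.67, UCK1 0.60 and CAD 0.44) and CTPS1 (-0.93) fell, against 40.0% and 17.4% of all tested genes. CAD and CTPS2, below 1 FPKM in each pectoralis major library, were tested only through soleus, and the median of 0.44 was 0.23, 0.33 and 0.20 without soleus library 1, 2 or 3. Only 1 rose under median-ratio scaling or quantile normalization, and 2 without any 1 soleus library, when only 5 of the 7 were tested. SLC29A1, the 1 tested nucleoside transporter, had 12.05 ± 0.674 and 12.3 ± 2.70 FPKM (SD, n = 3 each) and did not pass.

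Among 16 tested regulators that have been linked to purine synthesis, 7 fell in soleus, against 17.4% of all tested genes. The 7 include NRF1, which was tested only through pectoralis major, so its call supports neither this count nor the median. The median was -0.20, but -0.12 without pectoralis major library 2, -0.081 without pectoralis major library 3 and 0.013 with the mitochondrial genes removed. By limma 0 rose, against 40.0% of all tested genes, 1 was higher at an unadjusted p under 0.05, and 0 rose with voom. With the replicate block 1 rose, against 4207 of all 9616 tested genes. On leaving out soleus library 1 or pectoralis major library 3, 1 rose, against 2495 of 8929 and 3582 of 9493 genes. TFEB (-1.08), the mTORC1 activator RHEB (-0.84), RPTOR (-0.67) and ATF4 (-0.61), a stress-response factor known in mammals to act on serine and one-carbon genes, had the largest differences among the 7. MYC had a larger difference (0.76) than RPTOR and ATF4 but did not pass (adjusted p = 0.0529). The number that fell was 4 on leaving out soleus library 1 or pectoralis major library 2, and 4 rose with the mitochondrial genes removed. HSP90AA1, the most abundant of the list, had 521 ± 26.9 and 571 ± 45.1 FPKM (SD, n = 3 each), did not pass as deposited and passed as lower under quantile normalization (adjusted p = 0.013) and median-ratio scaling (0.00858).

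Genes with the most similar profiles were sought among those with a mean of at least 10 FPKM, by the root-mean-square distance of centred log2(FPKM + 1) values over the 6 libraries. The 3 nearest to GART were HOMER3 (0.099), SLC37A4, the glucose 6-phosphate transporter (0.12), and PFKM, muscle phosphofructokinase (0.12). PFKM averaged 412 ± 70.8 FPKM in soleus against 3038 ± 189 in pectoralis major (SD, n = 3 each). Nearest to ATIC were PCOLCE2 (0.12), PPL (0.12) and MGLL (0.13), and nearest to ADSL were the gene listed as HIST1H110 (0.11), VPS72 (0.11) and MLLT11 (0.13). For PPAT these were NARS (0.042), DRG1 (0.048) and NDUFS6 (0.051), and for PAICS they were SGCD (0.069), SEC24C (0.11) and TSPAN13 (0.11). Like PPAT and PAICS, these genes did not pass as deposited. The match used the same values as the test, so a shared direction or call follows from it and is no separate result.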

How the data were processed

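The authors deposited 1 table of FPKM values for the 6 libraries, with gene symbols, gene numbers and annotation terms. HISAT2, HTSeq, Cufflinks, R 3.2.0 and genome build GRCg6a are named, without roles, per the submitters' processing notes. The use of strand is not given in the sources used here. Gene numbers were matched to the gene table of GRCg7b, another build, so no coordinates are given.

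Fragment numbers and library totals were recovered from the smallest steps between FPKM values. Of 94897 nonzero values, 100.0% corresponded to whole fragments (relative tolerance 1e-06).

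limma 3.58.1 in R 4.3.3 (variance trend, two-sided, no covariate) was run on log2(FPKM + 1), keeping a gene when 3 or more of the 6 libraries reached 1 FPKM. Python 3.11.15, numpy 2.4.6, pandas 2.3.3 and matplotlib 3.10.9 did the rest, and the scripts were tested on simulated data. Libraries with the same number deviated together (r = 0.37 to 0.45 over genes), so the numbers may pair the samples. What such libraries share is not stated in the labels. The main fit and the permutation test left this pairing out, and a fit with the replicate number as a block was an alternative. Other alternatives changed the pseudocount, filter, scaling and test (voom on fragments) and left out each library.

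Members, lists and markers were chosen with earlier results of these data known. Named are the 5 genes, per list up to 4 called genes with the largest difference and the most abundant gene, the 3 nearest profiles per gene, and each gene in a count of 5 or fewer. MYL3, MYH1E, MYL1, TNNT3, TNNI2, GART-B, MYC and the markers were named after their values were seen. The result of 1 marker list is not reported here.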

Additional observations from a re-analysis of the deposited data

How the results depend on the processing

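GART kept its direction and call under 16 alternatives (log2 difference -3.54 to -2.89, adjusted p up to 0.000285) and ATIC under 15 (0.89 to 1.48, adjusted p up to 0.0208). With the replicate block the difference of GART was -3.03 (limma adjusted p = 9.99e-08). The block changed no call of the 5 genes or of the other genes named by the rule. Erythrocyte markers called higher went from 0 to 2 of 3 and satellite cell markers from 1 to 2 of 3. Fibroblast and tendon markers went from 5 to 6 of 9. In the neighbouring lists 31 genes then rose and 23 fell, against 30 and 21. Over all genes 4207 then rose and 1873 fell, against 3844 and 1670. Adding the fragments of GART-B to GART was chosen after seeing the data. ADSL, at -0.69, was lost with no filter, and at -0.46 with the mitochondrial genes removed from the totals, and leaving out 1 library gave -0.90 to -0.47. The number of pathway genes lower in soleus was therefore 1 with no filter and 1 with the mitochondrial genes removed. It was 1 to 2 with 1 library left out and 3 under quantile normalization, where PPAT passed as well. PPAT had -0.44 under quantile normalization and 0.098 with the mitochondrial genes removed, and PAICS -0.017 under median-ratio scaling and -0.0065 under quantile normalization. With a pseudocount of 1 the differences of the ratios of GART to PPAT, PAICS and ADSL were -2.99, -3.31 and -2.34. Of all genes, 1639 were higher in soleus when a mean of 5 FPKM was required, 1956 under median-ratio scaling, 2147 under quantile normalization and 2495 to 3608 with 1 library left out, against 3844, and 2853 were lower under median-ratio scaling, against 1670. In the neighbouring lists 13 of 54 tested genes rose with the FPKM minimum, 13 of 91 with median-ratio scaling and 13 of 91 with quantile normalization, against 30 of 91. Of 65 other named genes, 33 kept direction and call under every alternative, 20 lost a call and 11 changed sign, all 11 of which had not passed. Under median-ratio scaling these were DLD (-0.24), GOT1 (-0.33), HPRT1 (-0.27), NT5C3A (-0.26), SEC24C (-0.15) and TSPAN13 (-0.11). Under quantile normalization they were DRG1 (0.032), GOT1 (-0.086) and NDUFS6 (0.031). With the mitochondrial genes removed they were DRG1 (0.18), HSP90AA1 (0.094), NARS (0.18), NDUFS6 (0.19) and SLC29A1 (0.20), and with the 50 most abundant genes removed from the totals GOT1 (-0.087), HPRT1 (-0.031) and NT5C3A (-0.015). With 1 library left out, DRG1 ranged from -0.081 to 0.035, GOT1 from -0.018 to 0.12, NDUFS6 from -0.075 to 0.033, NT5C3A from -0.046 to 0.24 and SLC29A1 from -0.16 to 0.13. SGCD, the remaining gene, passed as higher with the mitochondrial genes removed (limma adjusted p = 0.0267) and without pectoralis major library 3 (0.0236). Of the 11 genes, DRG1, HSP90AA1, NARS and NDUFS6 passed as lower under median-ratio scaling. DLD, SEC24C and TSPAN13 passed as higher with the mitochondrial genes removed, and HSP90AA1 as lower under quantile normalization. The cause of these changes was not tested. PFAS could not be given under any setting, and PPAT and PAICS had no value when a mean of 5 FPKM was required.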

Other observations

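The deposited purine metabolism pathway, which also holds cyclases, phosphodiesterases and kinases, had 79 tested genes, of which 33 (41.8%) rose in soleus and 15 (19.0%) fell, near the 40.0% and 17.4% of all tested genes. The deposited one-carbon pool pathway, which holds GART and ATIC, had 11 tested genes, of which 6 rose and 2 fell, MTHFD2 and GART.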
